A study of Mus musculus with 27 samples.

Results

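Microglia sorted from the tissue around a brain hemorrhage were compared between germ-free (GF) and specific pathogen-free (SPF) mice at day 3. The comparison uses 6 of the 27 RNA sequencing libraries of the study, 3 from GF mice and 3 from SPF mice, chosen by their labels alone. Both groups are wild type and received collagenase, an enzyme that opens vessel walls and so causes an intracerebral hemorrhage (ICH). GF mice carry no microbes, while SPF mice carry a gut microbiota free of listed pathogens and had no treatment of it. Another day 3 group, of 3 libraries, came from wild-type mice with the same collagenase injection that had been given an antibiotic cocktail (ABX). GF and SPF sham groups of 3 libraries each received PBS and are labelled day 7, so they differ from the day 3 groups in day as well as injury. The labels give neither age, sex nor the number of mice behind a library, so p-values measure a spread between libraries. In the main test that spread was estimated over the 9 groups of all 27 libraries, and not from the 6 compared alone.

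Microglia are the resident macrophages of the brain. After a hemorrhage they proliferate, take up red cells and debris, and share the tissue with neutrophils and monocytes that arrive from the blood. Microbial products such as short-chain fatty acids reach the brain through the circulation, and microglia of germ-free mice are widely studied as a model of the loss of these signals. By its groups, the study set microglia with no microbiota or a depleted one against those of colonised mice.

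The 6 libraries hold 50902521 to 61761183 counts each. Levels are CPM, counts scaled to a library total of 1000000 with TMM factors, given per library as replicates 1, 2 and 3. Log2 fold changes are GF over SPF, with their SE from the edgeR fit of all 27 libraries. The microglial label was met in all 6 libraries. The fractalkine receptor Cx3cr1, which marks microglia, had 5289.8, 3435 and 4331 CPM in GF libraries, against 3725, 2548 and 3595 CPM in SPF libraries. The libraries differed in measures that no gene list describes. GF libraries had 16853, 15411 and 16931 genes with a count, against 15224, 14078 and 15331 in SPF libraries, so every GF library shows more genes than every SPF library. Among genes of 5 to 20 CPM in a group, 1.56% had a library at 0 in GF and 9.72% in SPF. Mitochondrial transcripts made up 0.878, 0.924 and 0.955% of counts in GF libraries and 1.35, 1.87 and 1.72% in SPF libraries, with no overlap. Their part in the results below was not tested, except where GC offsets are named.

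At day 3 after hemorrhage, genes of the cell division cycle lay lower in GF microglia, 11 of 23 in every library, where 5.44% of all genes did so. Neutrophil markers lay higher at low levels, 7 of the 10 tested in every library, where 8.22% of all genes did so. That count is a description, as the filter on low counts can pass a gene through its high group alone. All lists were chosen with earlier results of these data known, so the other list counts are descriptions too. The abundant microglial genes Ltc4s and Cst3 and the H2A histone genes lay higher, and transcripts of the mitochondrial genome lay lower. Lists of homeostatic microglia, interferon response, antigen presentation and heme handling had median log2 fold changes from −0.18 to 0.42.

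None of these differences passed the test across all genes. Of 17573 genes tested, 0 passed an adjusted p of 0.05 in edgeR's quasi-likelihood test with Benjamini-Hochberg adjustment, a background of 0%, and the smallest adjusted p was 1. At an unadjusted p of 0.05, 608 genes stood out (3.46%), 501 higher in GF (2.85%) and 107 lower (0.609%). The same counts called 571 genes in DESeq2 (3.52% of those with an adjusted p) and 260 in limma voom (1.48%). Of the DESeq2 calls, 553 had 0 counts in every library of 1 group and 4 had a mean of at least 10 CPM. Of the limma voom calls, 167 had 0 counts in every library of 1 group and 16 had a mean of at least 10 CPM. The median log2 fold change over all genes was 0.02. The median SE was 0.725 over the 1295 genes of at least 100 CPM, 1.52 for genes of 10 to 100 CPM and 2.72 below that. Values below are therefore given for every library, with whether the groups overlap. All 3 GF libraries lay above all 3 SPF libraries for 1445 genes (8.22%), and all 3 lay below for 956 genes (5.44%). A list is read against these 2 shares as a description, since the lists were chosen with earlier results of these data known.

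Which single genes stood furthest apart? Ltc4s, the enzyme that makes leukotriene C4, had the smallest p among well expressed genes with separate groups (chromosome 11, 50236461 to 50238616 of mm10, minus strand). It had 1260.2, 502 and 1106 CPM in GF libraries, against 360.0, 265 and 328 CPM in SPF libraries. The lowest GF library was above the highest SPF library, with a log2 fold change of 1.59 ± 0.44 (edgeR adjusted p = 1; limma voom adjusted p = 0.0179). With offsets for the GC content of transcripts, the log2 fold change was 0.80. Cst3, which encodes the secreted protease inhibitor cystatin C, is among the most abundant microglial transcripts (chromosome 2, 148871722 to 148875692). It had 21539, 10319 and 15448 CPM in GF libraries, against 9673, 8158 and 7522 CPM in SPF libraries. These groups also did not overlap, with GF replicate 2 nearest to SPF, at a log2 fold change of 0.90 ± 0.26 (edgeR adjusted p = 1). With the GC offsets it was 0.58 and the groups overlapped.

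Other genes higher in all GF libraries took part in sulfate transfer, RNA breakdown and microglial signalling. Sult1a1, a cytosolic sulfotransferase, had 148, 36.4 and 173 CPM in GF libraries, against 10.2, 33.7 and 11.7 CPM in SPF libraries (log2 fold change 2.69 ± 0.95). Ypel3, a gene linked to growth arrest, had 484, 314 and 370.0 CPM in GF libraries, against 193, 111 and 102 CPM in SPF libraries (log2 fold change 1.52 ± 0.62, 0.96 with GC offsets, limma voom adjusted p = 0.0319). GF replicate 2 was the lowest GF library in both, close to SPF replicate 2 for Sult1a1. Tyrobp, the signalling adaptor of Trem2, had 3205, 1975 and 3092 CPM in GF libraries, against 1764, 1709.6 and 1519 CPM in SPF libraries, and overlapped between groups once GC offsets were added. Siglech, a sialic acid-binding receptor of microglia, had 1663, 1104 and 1114 CPM in GF libraries, against 913, 782 and 695 CPM in SPF libraries. The near-identical RNase genes Rnaset2a and Rnaset2b had log2 fold changes of 0.84 and 0.77, but how reads were shared between the copies is not known. Each of these genes had an edgeR adjusted p of 1.

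**Figure D1:**
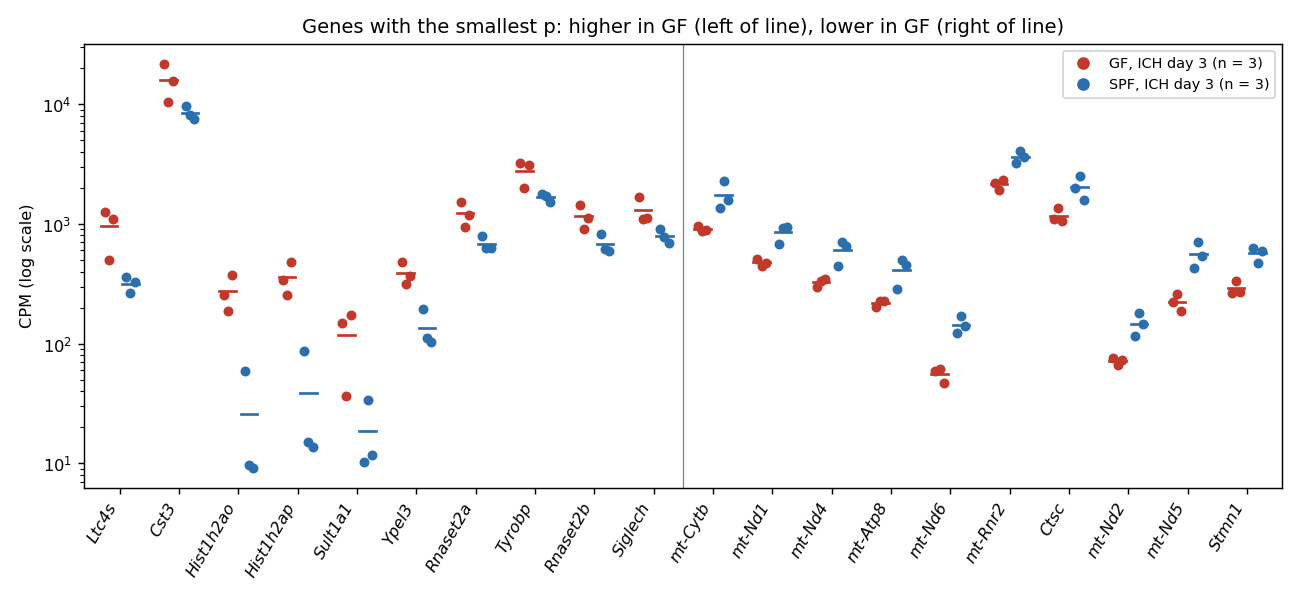
Levels in CPM on a log axis of the 10 genes with the smallest p in each direction, among annotated genes of at least 4 log2 CPM whose groups do not overlap. Points are libraries, GF left of SPF, and bars are means of n = 3; mt-Cytb is lower in GF and Ltc4s is higher, with each group's 3 points apart.

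The genes that lay lower in GF with the smallest p were mostly encoded in the mitochondrial genome. mt-Cytb, the mitochondrial subunit of complex III, had 965, 870.1 and 885 CPM in GF libraries, against 1349, 2268 and 1581 CPM in SPF libraries (log2 fold change −0.93 ± 0.34, −0.56 with GC offsets, edgeR adjusted p = 1). mt-Nd5, a complex I subunit, had 224, 262 and 188 CPM in GF libraries, against 431, 699.6 and 544 CPM in SPF libraries (log2 fold change −1.31 ± 0.64, −0.86 with GC offsets). All 13 protein-coding mitochondrial genes had a log2 fold change below 0, with a median of −0.88, and in 12 of 13 all GF libraries were below all SPF libraries. With GC offsets, the median was −0.41 and 7 of 13 lay lower in all GF libraries, against 5.73% of all genes. Their transcripts have a median GC content of 37.1%. The nuclear genes of oxidative phosphorylation lay to both sides. Of 21 tested, 5 lay higher in all GF libraries and 3 lower, with a median of 0.13, or −0.00562 with GC offsets. Cox4i1, a subunit of complex IV, had 877, 628 and 885 CPM in GF libraries, against 595, 484 and 536 CPM in SPF libraries, while Atp5a1, a subunit of ATP synthase, had 578, 529 and 576 CPM in GF libraries, against 584, 708 and 612 CPM in SPF libraries. Outside the mitochondrial genome, Ctsc, the protease that activates granule enzymes of leukocytes, had 1093, 1351 and 1062 CPM in GF libraries, against 1991, 2491 and 1574 CPM in SPF libraries (log2 fold change −0.79 ± 0.38).

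The log2 fold change varied with GC content across abundant genes. Over 1649 genes of at least 100 CPM on average over all libraries, transcript GC content and log2 fold change had a Spearman coefficient of 0.499, a value across genes, which share the libraries. In the quintile of highest GC content, 24.2% of genes lay higher in all GF libraries and 2.12% lower. In the quintile of lowest GC content the shares were 2.42% and 23.3%. The GC offsets are fitted to the trend with GC content in each library, so the low coefficient with them, 0.0170, was built in. They would also take out a true difference that follows GC content. With the offsets the shares over all genes were 7.73% higher and 5.73% lower. List medians with the offsets are given below.

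**Figure D2:**
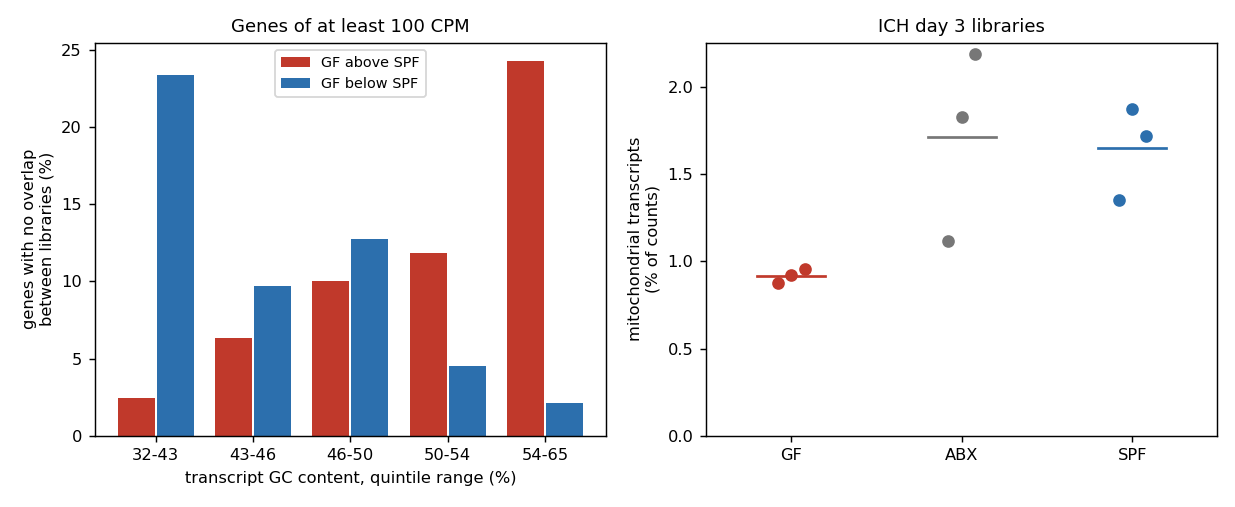
Left, the share of genes of at least 100 CPM whose GF libraries all lay above or all below the SPF libraries, by quintile of transcript GC content; right, the share of counts from mitochondrial transcripts in each day 3 library, with group means (n = 3). The share of genes higher in GF is 24.2% at the highest GC content and 2.42% at the lowest, and the 3 GF libraries hold 0.878% to 0.955% mitochondrial counts, below every SPF and ABX library.

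Genes of the cell division cycle lay lower in GF. All 23 genes of the list had a log2 fold change below 0, with a median of −0.84, against 0.02 over all genes. In 11 of 23 every GF library was below every SPF library, against a background of 5.44%. The list was chosen with earlier results of these data known and its genes share the libraries, so the count is a description. With GC offsets the median was −0.81 and 10 of 23 lay lower in all GF libraries, against 5.73%. Leaving out 1 of the 6 libraries at a time gave medians from −0.99 to −0.66. In edgeR 0 of the 23 passed, as did 0 of all genes, and limma voom called Stmn1. The list summed to 2016, 2796 and 2298 CPM in GF libraries and 3765, 3693 and 4058 CPM in SPF libraries, with no overlap. In bulk RNA, fewer dividing cells and less of these transcripts per cell cannot be told apart.

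The members span DNA synthesis to mitosis. Stmn1, which encodes the microtubule regulator stathmin, had 265, 334 and 270.3 CPM in GF libraries, against 632, 474 and 592 CPM in SPF libraries (chromosome 4, 134468320 to 134473843). No GF library reached the lowest SPF library, at a log2 fold change of −0.97 ± 0.50 (edgeR adjusted p = 1; limma voom adjusted p = 0.0413). Ube2c, the ubiquitin-conjugating enzyme that works with the anaphase-promoting complex, had 17.5, 38.8 and 39.4 CPM in GF libraries, against 86.5, 96.3 and 99.7 CPM in SPF libraries (−1.56 ± 1.97 on the log2 scale). Among other mitotic genes, Birc5, survivin of the chromosomal passenger complex, had 43.9, 75.8 and 52.7 CPM in GF libraries, against 103, 104 and 162 CPM in SPF libraries. Its partner kinase Aurkb had 26.3, 26.1 and 27.2 CPM in GF libraries, against 38.8, 45.7 and 77.5 CPM in SPF libraries. The kinetochore protein Cenpf had 23.7, 32.96 and 20.3 CPM in GF libraries, against 74.1, 116 and 44.95 CPM in SPF libraries, the widest of the list's differences at −1.61 ± 1.58 on the log2 scale. In each of these the groups were apart. Top2a, the topoisomerase that untangles chromosomes, and Ccna2, cyclin A2, were apart as well but by small gaps. Top2a had 21.9, 44.5 and 40.03 CPM in GF libraries, against 62.4, 52.3 and 100.4 CPM in SPF libraries. Ccna2 had 29.4, 46.5 and 24.1 CPM in GF libraries, against 70.5, 46.7 and 70.3 CPM in SPF libraries, with GF replicate 2 almost level with SPF replicate 2.

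Chromatin and replication genes of the list are more abundant and so better measured. H2afz, the histone variant H2A.Z, had 632, 795 and 701 CPM in GF libraries, against 871, 1101 and 1047 CPM in SPF libraries (−0.50 ± 0.43). Hmgb2, a chromatin protein of dividing cells, had 115, 153 and 121 CPM in GF libraries, against 214, 234 and 203 CPM in SPF libraries (−0.74 ± 0.59, −0.38 with GC offsets). Pcna, the sliding clamp of DNA polymerase, had 109, 152 and 137 CPM in GF libraries, against 162, 333 and 215 CPM in SPF libraries (−0.84 ± 0.84). Tubb5, a beta-tubulin, completes the 11 genes with separate groups. The replication licensing genes Mcm2, Mcm3, Mcm5 and Mcm6 overlapped, with log2 fold changes of −0.26, −0.47, −0.83 and −0.46. Mki67, the common marker of proliferation, also overlapped, with SPF replicate 2 the lowest library. It had 14.5, 29.7 and 23.6 CPM in GF libraries, against 74.1, 5.26 and 45.4 CPM in SPF libraries. Cdkn1a, the inhibitor p21 that halts the cycle, was listed too and overlapped at −0.28 ± 1.51. Kpna2, an importin linked to dividing cells and no member of the list, was named after its value was seen, being 1 of the 16 limma voom calls of at least 10 CPM. It had 104, 127 and 128 CPM in GF libraries, against 260.1, 265 and 321 CPM in SPF libraries (log2 fold change −1.24 ± 0.75, limma voom adjusted p = 0.0263).

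**Figure D3:**
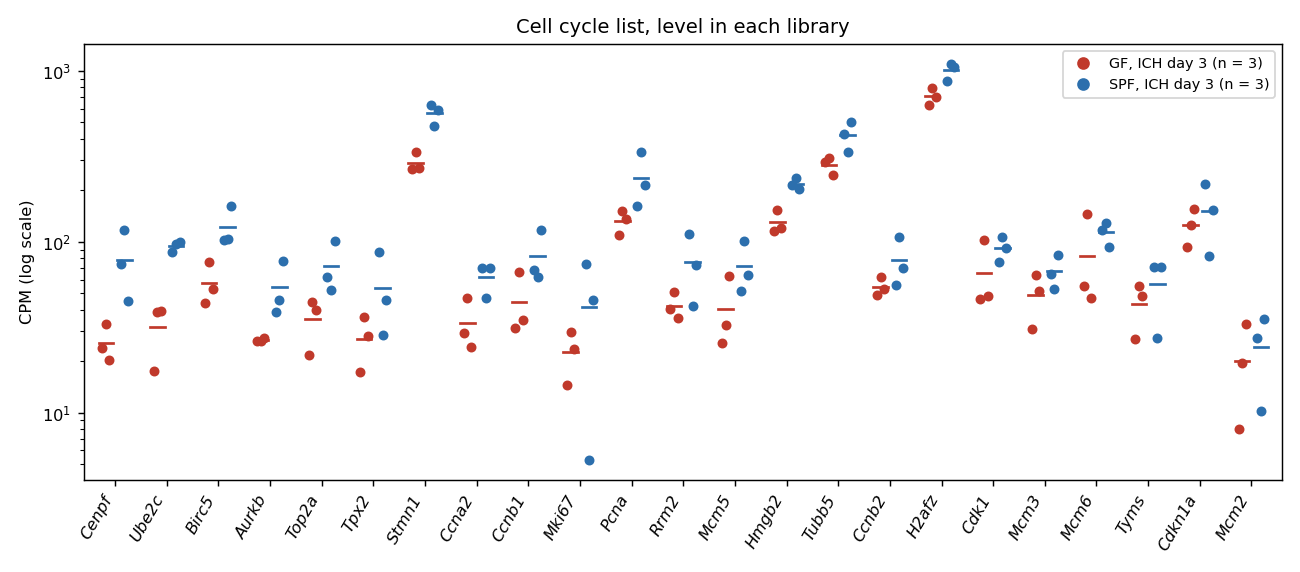
Levels in CPM on a log axis of the 23 genes of the cell cycle list, ordered by log2 fold change. Points are libraries, GF left of SPF, and bars are means of n = 3; Stmn1, Ube2c, Hmgb2 and H2afz show 3 GF points below all 3 SPF points, and Mki67 shows the single low SPF library.

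The promoters of a mitotic gene and a chromatin gene with separate groups are shown because cell cycle promoters are known for paired CCAAT boxes, bound by NF-Y, and for the cell cycle homology region with the core TTTGAA. Both come from RefSeq on GRCm38.p6, from 250 bases before to 50 after the start, with matches to either motif on either strand in capitals: Ube2c lies at chr2:164769679-164769978 on the plus strand and Hmgb2 at chr8:57511593-57511892 on the plus strand.
Ube2c: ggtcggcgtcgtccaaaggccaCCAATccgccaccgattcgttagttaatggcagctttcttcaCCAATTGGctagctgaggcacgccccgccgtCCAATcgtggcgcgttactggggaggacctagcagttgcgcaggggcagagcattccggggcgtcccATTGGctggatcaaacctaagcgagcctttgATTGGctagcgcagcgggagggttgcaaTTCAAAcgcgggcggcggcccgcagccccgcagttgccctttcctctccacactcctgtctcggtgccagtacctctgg
Hmgb2: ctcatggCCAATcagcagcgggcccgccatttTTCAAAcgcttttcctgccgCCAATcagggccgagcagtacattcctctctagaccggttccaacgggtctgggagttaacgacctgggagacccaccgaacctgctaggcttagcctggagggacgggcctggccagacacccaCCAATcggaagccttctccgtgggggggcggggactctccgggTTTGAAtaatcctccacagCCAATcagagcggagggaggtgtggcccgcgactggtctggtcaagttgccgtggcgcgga
The Ube2c window held 6 matches to CCAAT, of which 2 overlap, and 1 to TTTGAA, while the Hmgb2 window held 4 and 2. RefSeq windows were found for 18 of the 23 listed genes, of which 15 held CCAAT (83.3%) and 8 held TTTGAA (44.4%). Over 27025 promoters of the same length the shares were 37.9% and 18.1%. A match describes the letters and not a bound site.

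Histone genes of the H2A type, which are transcribed in S phase, lay on the other side from the cell cycle list. Of the 12 H2A genes of the Hist1 cluster that were tested, 12 had a log2 fold change above 0, with a median of 2.09. Of these, 9 lay higher in all GF libraries, against 8.22% of all genes. With GC offsets the median was 1.57 and 7 lay higher in all GF libraries, against 7.73% of all genes. Hist1h2ao had 254, 189 and 375 CPM in GF libraries, against 59.1, 9.65 and 9.24 CPM in SPF libraries (log2 fold change 3.39 ± 1.17, DESeq2 adjusted p = 0.0387). SPF replicate 1 was well above the other SPF libraries. Hist1h2ap had 343, 257 and 485 CPM in GF libraries, against 86.3, 15.03 and 13.8 CPM in SPF libraries. These genes are close copies of each other, so reads may be shared among them, and their transcripts have a median GC content of 64.8%. Of the H2B, H3 and H4 genes of the same cluster, 5 of 33 lay higher in all GF libraries and 0 lower, with a median of 0.67 (3 higher and 0.48 with GC offsets). The median GC content of these transcripts is 56.5%, and 24.2% of abundant genes in the highest GC quintile lay higher. Over all 61 replication-dependent histone genes tested, 17 lay higher and 0 lower, with a median of 0.73 (11 higher and 0.43 with GC offsets). Over all genes the shares were 8.22% higher and 5.44% lower. In the ABX libraries of day 3, Hist1h2ao stood at 83.96, 216 and 219 CPM, overlapping GF.

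Most genes of neutrophils lay higher in GF. Neutrophils are short-lived granulocytes that arrive early after a hemorrhage, and their genes were listed as markers of cells other than microglia. Of 11 marker genes 10 were tested, 9 had a log2 fold change above 0 and 7 lay higher in all GF libraries, against a background of 8.22%. The filter on low counts can pass a gene through its high group alone, so the count and the medians over tested genes are descriptions. The median log2 fold change was 6.70, against 0.02 over all genes. With 3 counts per library in place of 0 for the 3 genes at 0 in every SPF library, it was 6.15. Over the listed genes with a mean of at least 10 CPM, which were S100a8, S100a9, Ngp and Csf3r alone, it was 3.67. This cut is on the mean over both groups, and S100a8, S100a9 and Ngp passed it through GF alone. The value 3.67 is thus a description as well. With GC offsets the median over all tested markers was 6.57, with 7 higher in all GF libraries. Without GF replicate 3 it was 3.42, and without each other library between 6.38 and 8.06.

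Genes of granule and surface proteins stood apart at low levels. Mmp9, the gelatinase of neutrophil granules (chromosome 2, 164940780 to 164955850), had 11.8, 21.7 and 22.1 CPM in GF libraries, against 0, 0 and 0 CPM in SPF libraries. With 3 counts per library in place of 0, GF lay 8.65 log2 units above SPF (edgeR adjusted p = 1; limma voom adjusted p = 2e-05). That value allows for counting error only and not for missed transcripts. Of genes of 5 to 20 CPM in SPF, 9.72% had a library at 0. Mmp9 was also at 0 in all 3 ABX libraries of day 3 and in all 3 GF sham libraries, with 3.64, 0 and 0 CPM in SPF sham libraries. Cxcr2, the chemokine receptor that guides neutrophils out of the blood, had 1.86, 7.89 and 6.75 CPM in GF libraries, against 0, 0 and 0 CPM in SPF libraries, 6.90 log2 units higher by the same measure. Mmp8, neutrophil collagenase, had 8.06, 5.97 and 1.57 CPM in GF libraries, against 0, 0 and 0 CPM in SPF libraries, 6.82 log2 units higher by the same measure. Mmp8 had 0, 46.6 and 5.23 CPM in GF sham libraries, against 0 in all SPF sham libraries, and 0, 0 and 4.41 CPM in ABX libraries of day 3. The calcium-binding alarmins S100a8 and S100a9 were detected in SPF as well. S100a8 had 20.8, 55.9 and 87.2 CPM in GF libraries, against 2.17, 0 and 6.56 CPM in SPF libraries (4.23 ± 2.28 on the log2 scale). S100a9 had 12.8, 17.3 and 32.2 CPM in GF libraries, against 2.23, 0 and 4.86 CPM in SPF libraries (3.13 ± 2.33). Retnlg, resistin-like gamma, had 10.6, 7.43 and 6.50 CPM in GF libraries, against 0, 0.0914 and 3.03 CPM in SPF libraries.

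Genes of granule formation were uneven among GF libraries. Camp, the antimicrobial peptide precursor, had 0.627, 7.12 and 21.6 CPM in GF libraries, against 0, 0 and 0.0999 CPM in SPF libraries. Ngp, neutrophilic granule protein, had 0.139, 0.328 and 78.02 CPM in GF libraries, against 0, 0.122 and 0.200 CPM in SPF libraries. Ltf, lactoferrin, had 0, 0 and 10.6 CPM in GF libraries, against 0.0710, 0.0762 and 0.0832 CPM in SPF libraries. GF replicate 3 was the highest in all 3 genes, and for Ngp and Ltf the groups overlapped. Csf3r, the G-CSF receptor and the most abundant marker, did not differ beyond its error, at −0.26 ± 1.08, with 99.03, 70.1 and 114 CPM in GF libraries, against 115, 74.1 and 148 CPM in SPF libraries. Ly6g, the surface marker used to sort neutrophils, was not tested: its counts were 0, 0 and 4 in GF libraries and 0 in all SPF libraries. The list summed to 166, 194 and 380.1 CPM in GF libraries and 119, 74.4 and 163 CPM in SPF libraries. Most of it in SPF was Csf3r, which microglia also express.

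**Figure D4:**
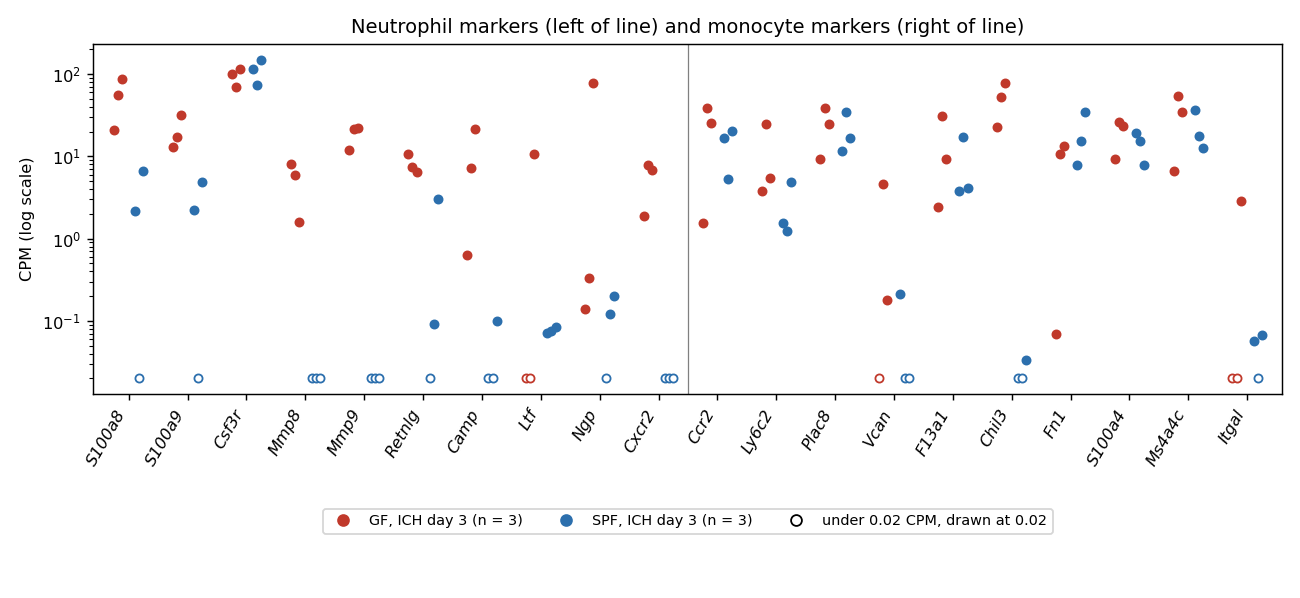
Levels in CPM on a log axis of tested neutrophil and monocyte markers in each library, GF left of SPF (n = 3 each), with open circles for values under 0.02 CPM. Mmp8, Mmp9 and Cxcr2 are at 0 in every SPF library, and Ngp and Ltf are high in 1 GF library alone.

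The promoters of a granule enzyme and an alarmin are shown because C/EBP factors, which bind words such as TTGCNNAA, are known to drive granulocyte genes. Matches to TTGCNNAA, CCAAT or TTTGAA on either strand are in capitals. Both windows come from RefSeq on GRCm38.p6: Mmp8 lies at chr9:7558179-7558478 on the plus strand and S100a9 at chr3:90695672-90695971 on the minus strand.
Mmp8: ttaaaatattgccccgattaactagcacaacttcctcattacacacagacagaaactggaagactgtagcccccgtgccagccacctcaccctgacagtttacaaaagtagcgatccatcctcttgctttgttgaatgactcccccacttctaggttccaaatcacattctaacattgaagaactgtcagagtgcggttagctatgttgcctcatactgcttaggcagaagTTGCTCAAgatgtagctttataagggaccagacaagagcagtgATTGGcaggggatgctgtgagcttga
S100a9: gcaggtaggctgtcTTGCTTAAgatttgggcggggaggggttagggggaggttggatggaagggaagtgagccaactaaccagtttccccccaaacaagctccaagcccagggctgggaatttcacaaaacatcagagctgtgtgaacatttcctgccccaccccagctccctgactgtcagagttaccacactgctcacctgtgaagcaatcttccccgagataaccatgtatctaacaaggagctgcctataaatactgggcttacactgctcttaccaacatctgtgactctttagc
Each window held 1 match to TTGCNNAA, and Mmp8 held 1 to CCAAT after its start. All 11 listed genes but Mmp9 had a window, and 6 of these 10 held TTGCNNAA (60%), against 10.8% of 27025 promoters. In the 4 windows shown, matches to different motifs did not overlap.

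Monocyte genes mostly overlapped. Of 10 tested, 1 lay higher in all GF libraries and 0 lower, with a median of 0.69 (0.85 with GC offsets). Without GF replicate 2 the median was 0.0736, without GF replicate 1 it was 1.21 and without SPF replicate 2 it was 1.31. The gene with separate groups was Chil3, a secreted chitinase-like protein of monocytes, neutrophils and alternatively activated macrophages (chromosome 3, 106147554 to 106167564). It had 22.9, 52.7 and 78.4 CPM in GF libraries, against 0, 0 and 0.0333 CPM in SPF libraries. GF libraries held 9281 counts in all and SPF libraries 2, a ratio of 5028 after scaling by library size (exact 95% interval 1391 to 41520, counting error only). Chil3 was the gene with the smallest limma voom adjusted p of those of at least 10 CPM, 0.000687, with 2e-05 in DESeq2 and 1 in edgeR. It stood at 0 in all 3 ABX libraries of day 3 and at 0.645, 0.697 and 22.7 CPM in GF sham libraries, against 2.66, 24.1 and 0.194 CPM in SPF sham libraries. Ccr2, the receptor of inflammatory monocytes, overlapped, with 1.55, 38.1 and 25.4 CPM in GF libraries, against 16.5, 5.27 and 20.4 CPM in SPF libraries. Ly6c2, their surface antigen, overlapped as well, with 3.78, 24.9 and 5.41 CPM in GF libraries, against 1.53, 1.23 and 4.86 CPM in SPF libraries.

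Markers of most other cells overlapped. For T and NK cells the median log2 fold change was −0.83, with 0 of 8 tested genes higher and 1 lower in all GF libraries. It was −0.84 with GC offsets and −0.22 without SPF replicate 3. Border macrophage genes had a median of 0.15 (−0.14 with GC offsets), with 1 of 8 lower, Mrc1, the mannose receptor, at 2.54, 13.9 and 5.82 CPM in GF libraries, against 17.3, 31.2 and 23.1 CPM in SPF libraries. Medians were 0.22 for B cells, 0.42 for dendritic cells, 0.66 for astrocytes, 1.12 for oligodendrocytes and 0.81 for choroid plexus, and with GC offsets 0.15, 0.44, 0.66, 0.83 and 0.83 in the same order. Neuron and endothelial genes had medians of 1.32 and 1.71 over 5 genes each (1.62 and 1.66 with GC offsets), at summed levels of at most 15.7 CPM in any library. Of these, 2 neuron genes and 1 endothelial gene lay higher in all GF libraries. The neuron median was 0.11 without GF replicate 1, 0.82 without SPF replicate 2 and 3.44 without SPF replicate 3, and the endothelial median was 1.09 without GF replicate 3 and 2.81 without SPF replicate 1. Hemoglobin transcripts differed between libraries within each group. The 5 erythroid genes all overlapped, with a median of 1.71 (1.59 with GC offsets; 3.13 without SPF replicate 3). Hba-a1, the alpha chain, had 306, 273 and 67.4 CPM in GF libraries, against 18.4, 28.3 and 114 CPM in SPF libraries, high in GF replicates 1 and 2 and in SPF replicate 3, and its near-identical copy Hba-a2 may share its reads. Choroid plexus genes summed to 3212, 2369.7 and 767 CPM in GF libraries and 1241, 592 and 2254 CPM in SPF libraries, with overlap. The part of these cells in the results was not tested.

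**Figure D5:**
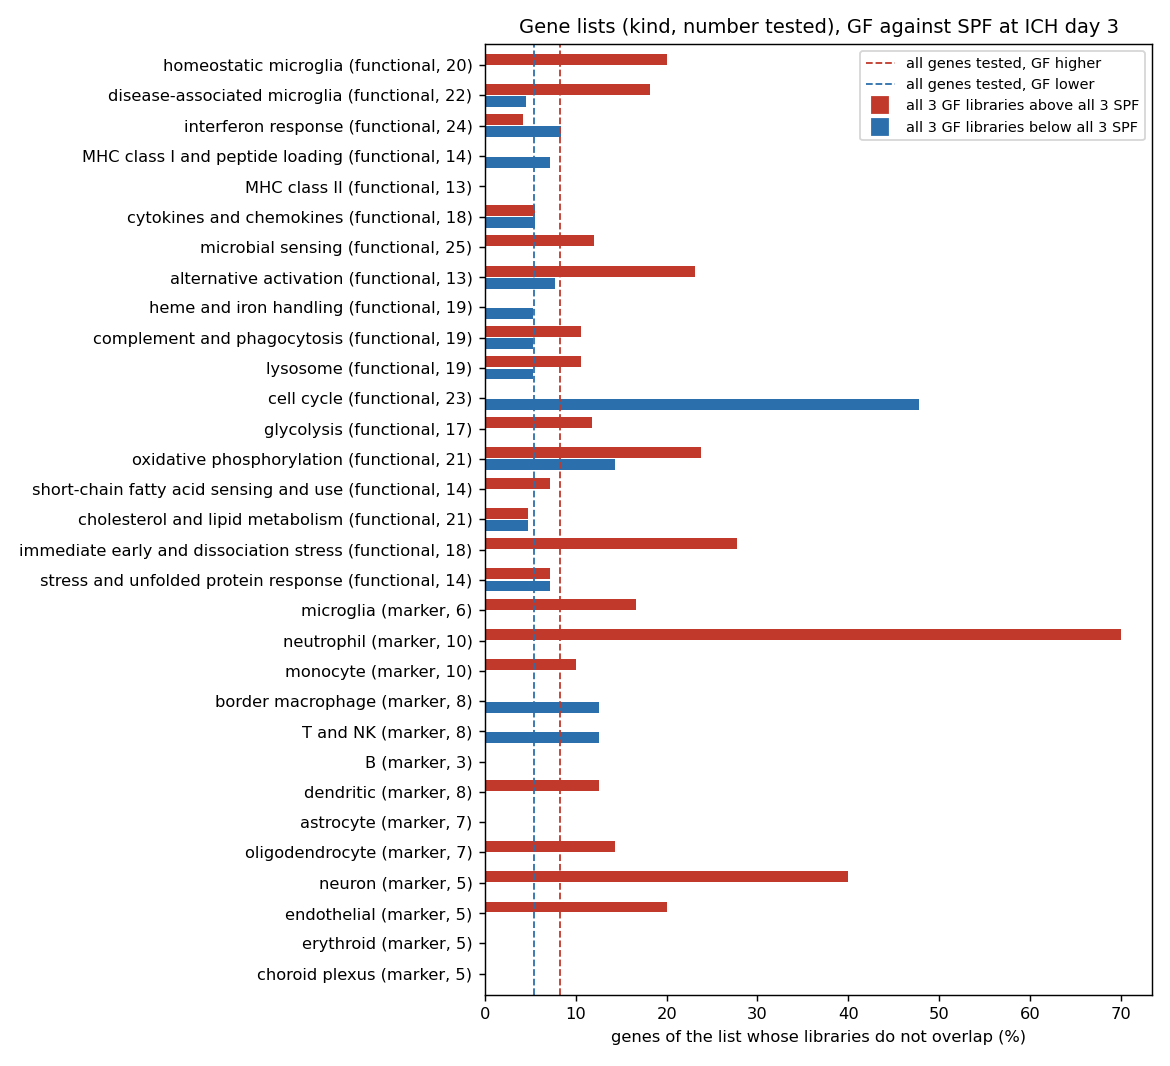
The share of each list's tested genes whose 3 GF libraries all lay above (red) or all below (blue) the 3 SPF libraries, with dashed lines for all genes tested, at 8.22% and 5.44%. The cell cycle list, at 11 of 23 genes lower, and the neutrophil markers, at 7 of 10 higher, extend furthest. The neutrophil share is a description, as markers can pass the filter on low counts through GF alone. All lists were chosen with earlier results of these data known.

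Genes of resting microglia leaned upward in GF by small amounts. Of 20 homeostatic genes 18 had a log2 fold change above 0, with a median of 0.42. With GC offsets it was 0.38, with 5 higher and 1 lower in all GF libraries, against 7.73% and 5.73% of all genes. Without the offsets, 4 lay higher in all GF libraries and 0 lower, against 8.22% and 5.44% of all genes. The 4 were Cst3, Siglech, Mertk and Spi1. Spi1, the transcription factor PU.1, had 404, 426 and 504 CPM in GF libraries, against 319, 174 and 329.6 CPM in SPF libraries (0.70 ± 0.94, 0.28 with GC offsets). Mertk, a receptor for dying cells, had 139, 102 and 109 CPM in GF libraries, against 76.1, 99.6 and 82.2 CPM in SPF libraries (0.44 ± 0.79). The defining surface genes overlapped between groups as measured. P2ry12, the ADP receptor, had 3554, 2283 and 2142 CPM in GF libraries, against 2428, 3037 and 1765 CPM in SPF libraries, a difference of 0.14 ± 0.35. With GC offsets it was 0.54 and every GF library lay above every SPF library. The 6 microglia markers had a median of 0.30 (0.42 with GC offsets; 0.0965 without GF replicate 1 and 0.47 without GF replicate 2), with 1 higher and 0 lower in all GF libraries. Tmem119 had 3724, 865 and 3321 CPM in GF libraries, against 1339, 951 and 1236 CPM in SPF libraries, with GF replicate 2 below every SPF library (1.17 ± 0.68, 0.62 with GC offsets).

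The program known as disease-associated microglia, which follows phagocytosis of debris, was split. Of 22 genes, 4 lay higher in all GF libraries and 1 lower, against 8.22% and 5.44% of all genes. The median was 0.12, or −0.06 with GC offsets. Gpnmb, a glycoprotein of lipid-laden phagocytes, had 47.6, 146 and 72.6 CPM in GF libraries, against 4.16, 16.2 and 5.76 CPM in SPF libraries (3.35 ± 1.55, edgeR adjusted p = 1). Lgals3, the lectin galectin 3, had 331, 802 and 605 CPM in GF libraries, against 255, 141 and 309 CPM in SPF libraries (1.303 ± 0.91). Both were highest in GF replicate 2. Ccl6 and Tyrobp were the other genes that lay higher, and Cd63, a tetraspanin of lysosomes, lay lower with 1859, 2339 and 2089 CPM in GF libraries, against 2519, 2760.1 and 2600.3 CPM in SPF libraries. Abundant members overlapped between groups. Spp1, osteopontin, had 1532, 6467 and 3266 CPM in GF libraries, against 2338, 4251 and 3930.2 CPM in SPF libraries (0.10 ± 0.54, 0.19 with GC offsets), and Apoe, the lipid carrier, had 4274, 9126 and 8961 CPM in GF libraries, against 5377, 7267 and 7148 CPM in SPF libraries (0.18 ± 0.46, −0.38 with GC offsets).

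Immediate early genes, which respond within minutes to stimulation and to tissue dissociation, had a median of 0.74. Of 18 genes, 5 lay higher in all GF libraries and 0 lower, against 8.22% and 5.44% of all genes. With GC offsets the median was 0.39, with 2 higher and 1 lower, against 7.73% and 5.73% of all genes. Jun, a subunit of AP-1, had 809, 256 and 971 CPM in GF libraries, against 183, 248 and 233 CPM in SPF libraries (1.62 ± 0.98). Ier2 had 171, 156 and 169 CPM in GF libraries, against 64.00, 63.1 and 34.6 CPM in SPF libraries (1.62 ± 1.26, 0.85 with GC offsets). Egr1, a zinc finger factor, had 94.6, 113 and 56.1 CPM in GF libraries, against 15.2, 51.2 and 16.5 CPM in SPF libraries (1.67 ± 1.17). Jund and Nr4a1 were the other genes with separate groups, and GF replicate 2 was close to SPF for Jun. Fos overlapped, with SPF replicate 2 high, at 295, 162 and 179 CPM in GF libraries, against 61.9, 242 and 35.1 CPM in SPF libraries. The list's transcripts have a median GC content of 55.8%.

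Genes that sense or answer microbes showed no common direction. Of 25 tested genes of microbial sensing, 3 lay higher in all GF libraries and 0 lower, with a median of 0.15 (0.09 with GC offsets). These were Cd14, the co-receptor for lipopolysaccharide, with 646, 373 and 490.2 CPM in GF libraries, against 362, 366 and 310.2 CPM in SPF libraries, and at low levels the flagellin receptor Tlr5 and the DNA receptor Tlr9. Tlr4, the lipopolysaccharide receptor, had 18.5, 34.02 and 30.3 CPM in GF libraries, against 16.4, 27.9 and 21.4 CPM in SPF libraries (0.33 ± 0.96, 0.67 with GC offsets), with overlap. Tlr2, the lipopeptide receptor, had 256, 461 and 264 CPM in GF libraries, against 543, 451 and 437 CPM in SPF libraries (−0.54 ± 0.60), with overlap. Cytokines and chemokines had a median of −0.20 (−0.06 with GC offsets) over 18 tested genes, 1 higher and 1 lower. Cxcl2, a ligand of Cxcr2, had 4.00, 11.9 and 12.02 CPM in GF libraries, against 0, 0 and 0.216 CPM in SPF libraries. Il1b had 6.18, 20.8 and 18.01 CPM in GF libraries, against 11.2, 3.55 and 13.1 CPM in SPF libraries and Tnf had 7.56, 16.4 and 10.7 CPM in GF libraries, against 36.3, 9.36 and 17.7 CPM in SPF libraries, both with overlap.

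The interferon response, which commensal microbes are known to set in myeloid cells, varied most among SPF libraries. Its genes summed to 1730.3, 2075 and 2138 CPM in GF libraries and 3017, 1510.1 and 1067 CPM in SPF libraries, with overlap. Of 24 genes, 6 had a log2 fold change above 0 and 18 below, with a median of −0.18 (−0.25 with GC offsets), 1 higher and 2 lower in all GF libraries. Ifit1, an RNA-binding effector, had 15.1, 29.4 and 27.6 CPM in GF libraries, against 66.8, 41.3 and 36.5 CPM in SPF libraries (−1.002 ± 1.69). Cxcl10, a chemokine for T cells, had 21.96, 27.01 and 21.95 CPM in GF libraries, against 66.8, 37.1 and 35.9 CPM in SPF libraries (−0.98 ± 1.78). The gene higher in all GF libraries was Ifnar2, with 310, 305 and 263 CPM in GF libraries, against 245, 147 and 161 CPM in SPF libraries (0.67 ± 0.51, 0.57 with GC offsets). Ifitm3 (0.71 ± 0.78) and Trim30a (−0.54 ± 0.78) overlapped. Without SPF replicate 1, which held the most of Ifit1 and Cxcl10, the list's median was 0.47. For antigen presentation, medians were 0.01 over 14 genes of class I (−0.12 with GC offsets) and 0.27 over 13 genes of class II (0.20 with GC offsets). Cd74, the class II invariant chain, had 196, 1398 and 1291 CPM in GF libraries, against 780.3, 469.6 and 989.7 CPM in SPF libraries, with GF replicate 1 the lowest of the 6.

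Short-chain fatty acids are the best known microbial metabolites that act on microglia. Of 18 listed genes for sensing or using them 14 were tested, with a median of 0.01 (−0.03 with GC offsets), 1 higher and 0 lower in all GF libraries. This was Bsg, the chaperone of monocarboxylate transporters, with 1002, 905 and 964 CPM in GF libraries, against 817, 475 and 757 CPM in SPF libraries (0.49 ± 0.64, 0.20 with GC offsets). Ffar2, a receptor for acetate, was not tested: it had 674 counts in SPF replicate 1 and 0 in the other 5 libraries. Ffar3, the related receptor, had 0 counts in all 6. Hcar2, the receptor for butyrate and ketone bodies, had 55.3, 144 and 93.6 CPM in GF libraries, against 125, 123 and 88.3 CPM in SPF libraries (−0.20 ± 1.45, −0.31 with GC offsets).

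Genes for the clearance of blood and debris mostly overlapped. Heme and iron genes had a median of −0.03 (−0.14 with GC offsets) over 19 tested, 0 higher and 1 lower. Hmox1, which breaks down heme, had 841, 1939 and 1109 CPM in GF libraries, against 1438, 1824 and 914 CPM in SPF libraries (−0.10 ± 1.09, −0.26 with GC offsets), and Ftl1, the ferritin light chain, had 26374, 26579 and 27783 CPM in GF libraries, against 28269.5, 22485 and 26724 CPM in SPF libraries (0.06 ± 0.37, −0.30 with GC offsets). Complement and phagocytosis genes had a median of 0.42, 2 of 19 higher and 1 lower. With GC offsets it was 0.14, 1 higher and 1 lower, and without GF replicate 1 or SPF replicate 2 it was 0.23 or 0.21. Lysosome genes had a median of 0.20, 2 of 19 higher and 1 lower, which was 0.07 with GC offsets, 1 higher and 3 lower, and 0.0682 without GF replicate 1. C1qb, a chain of complement C1q, had 19452, 9847 and 17626 CPM in GF libraries, against 11694, 7915 and 10825 CPM in SPF libraries (0.62 ± 0.34, 0.31 with GC offsets), with GF replicate 2 inside the SPF range. Medians were 0.04 for glycolysis (−0.21 with GC offsets; 2 of 17 higher, 0 lower), −0.38 for cholesterol and lipid metabolism (−0.56 with GC offsets; 1 of 21 higher, 1 lower) and −0.04 for the unfolded protein response (−0.05 with GC offsets; 1 of 14 higher, 1 lower). Alternative activation genes had a median of 0.75 over 13, 3 higher, Chil3 among them, and 1 lower, against 8.22% and 5.44% of all genes. This median was 0.94 with GC offsets, but 0.0928 without GF replicate 2 and 0.26 over genes of at least 10 CPM. Arg1, arginase 1, overlapped, with 4.32, 73.7 and 29.4 CPM in GF libraries, against 3.14, 39.5 and 7.48 CPM in SPF libraries.

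Some genes were detected in every library of one group and in none of the other. Counts of at least 10 in all 3 GF libraries and 0 in all 3 SPF libraries were found for 121 genes (0.689%), and the reverse for 6. Besides Mmp9, Cxcr2 and Mmp8, those found in GF and not in SPF included Trem1, an activating receptor of neutrophils and monocytes, named after its values were seen. Trem1 had 4.16, 8.51 and 4.35 CPM in GF libraries, and 0, 7.80 and 0 CPM in ABX libraries of day 3. The counts of 121 and 6 genes run alongside the larger number of genes detected in GF libraries, and the part of detection in them was not tested.

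The ABX group sets GF mice against mice given antibiotics. GF against ABX at day 3 uses the same GF libraries, so it is no independent repeat. In edgeR 0 of 17573 genes passed (0%; 754 at an unadjusted p of 0.05), with 667 calls in DESeq2 and 195 in limma voom. The cell cycle list had a median log2 fold change of −0.85, GF over ABX. All 23 genes lay below 0 and 9 were lower in all GF libraries, against a background of 4.26%. Stmn1 had 265, 334 and 270.3 CPM in GF libraries, against 377, 729 and 786 CPM in ABX libraries. Neutrophil markers had a median of 7.33, with 7 of 10 higher in all GF libraries, against 6.78%. Here too the count is a description, since GF alone can carry a marker past the filter. S100a8 had 20.8, 55.9 and 87.2 CPM in GF libraries, against 0.113, 4.99 and 0.505 CPM in ABX libraries. Ltc4s had 314, 493 and 389 CPM in ABX libraries, below every GF library. The mitochondrial genes had a median of −0.66.

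The sham groups ask whether uninjured GF and SPF microglia differed in the same way. The day 3 difference minus the sham difference passed for 0 genes in edgeR (0%; 999 at an unadjusted p of 0.05), with 494 calls in DESeq2 and 0 in limma voom. Without GF sham replicate 3 edgeR called 16. In sham, all 3 GF libraries lay above all 3 SPF libraries for 3.09% of genes and below for 5.09%. Of the 10 genes of smallest p that lay higher at day 3, Ypel3, Sult1a1 and Tyrobp also lay higher in all GF sham libraries. Sham log2 fold changes were 2.07 for Ypel3 and 0.93 for Tyrobp. Ltc4s, Cst3, Siglech, Rnaset2a, Rnaset2b, Hist1h2ao and Hist1h2ap overlapped in sham. Of 20 homeostatic genes 5 lay higher in all GF sham libraries, and of 19 lysosome genes 7, with 0 lower in both lists. The cell cycle list had a sham median of 1.70, GF over SPF, with 0 of 23 genes separate in either direction. Its median day 3 minus sham difference was −2.44. Stmn1 had 236, 132 and 218 CPM in GF sham libraries, against 54.9, 62.8 and 141 CPM in SPF sham libraries, with overlap. Neutrophil markers had a sham median of −0.88, with 0 of 10 separate. S100a8 had 2.98, 2.16 and 45.9 CPM in GF sham libraries and 5.00, 39.97 and 3.03 CPM in SPF sham libraries. Of the GF sham libraries, 2 hold under 12000 detected genes (10325, 11925 and 18408), which limits what they show of genes at low levels. In sham the mitochondrial genes had a median of 0.47, GF over SPF, and the H2A genes of Hist1 1.57. The other histone sets had sham medians below 0, unlike at day 3. These were −1.13 for the 33 H2B, H3 and H4 genes of Hist1 and −1.06 for all 61 replication-dependent histone genes.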

How the data were processed

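Per the labels' protocols, flow-sorted microglia gave low-input full-length cDNA libraries with a SMART-Seq v4 kit, read from both ends over 150 bases. The submitters' processing notes list HISAT2 2.0.4, cutadapt 1.9, edgeR, the mm10 build and StringTie 1.3.4d; the strand setting and annotation are not given in the sources used here. The deposited table holds whole-number counts per gene made by the authors. Symbols, coordinates and transcript GC content come from GENCODE M21, and promoters from RefSeq.

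Genes were kept by the edgeR filterByExpr rule over 9 groups (17573 of 56691). All 27 libraries entered 1 quasi-likelihood fit of edgeR 4.0.16 on group means with TMM factors (R 4.3.3), and 3 contrasts were tested. The common biological coefficient of variation was 1.54. Alternatives used DESeq2 1.42.0, limma 3.58.1 voom with quality weights, other scaling and filters, only the libraries compared, a replicate block, GC offsets (a spline with 6 degrees of freedom) and leaving out each library. The fit was tested on simulated data.

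Genes named are the 10 of smallest p in each direction with separate groups and at least 4 log2 CPM, up to 3 of each list by p, and Ffar2, Ffar3, Hcar2, P2ry12, Tmem119, Cx3cr1, Apoe, Spp1, Hmox1, B2m, Il1b and Tnf; other genes were named after their values were seen. Members and the 18 functional and 13 marker lists were chosen with earlier results of these data known. Some members of these lists are counted but not reported by name here.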

Additional observations from a re-analysis of the deposited data

Results flagged for a closer look

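Tlr5, the receptor for bacterial flagellin, lay on opposite sides of SPF in injured and uninjured GF mice. At day 3 it had 4.25, 4.09 and 2.72 CPM in GF libraries, against 0.284, 0 and 0.133 CPM in SPF libraries, so every GF library lay above every SPF library. In sham it had 0, 0 and 1.86 CPM in GF libraries, against 9.09, 23.9 and 12.7 CPM in SPF libraries, so every GF library lay below. The day 3 minus sham difference was 9.31 log2 units (edgeR adjusted p = 0.841) and did not pass the threshold. The levels are low, and the 2 GF sham libraries at 0 are those with under 12000 detected genes.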

How the results depend on the processing

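GF against SPF at day 3 gave 0 calls in edgeR under every alternative run, including each left-out library, against 571 calls in DESeq2 (451 higher, 120 lower) and 260 in limma voom (238 higher, 22 lower). With only the 6 libraries fitted, the smallest edgeR adjusted p was 0.336 and 980 genes had an unadjusted p under 0.05. GF against ABX gave 667 and 195. The day 3 minus sham difference gave 494 in DESeq2 and, leaving out 1 library at a time, 0 to 16 in edgeR. The cause was not tested. Of 1664 comparisons of a named gene with an alternative, 1622 kept direction and side of the threshold, 20 passed in DESeq2 or limma voom alone and 22 changed sign, all of these for genes within error of 0 or at low counts. With GC offsets B2m was 0.14 and Apoe −0.38 (0.16 and −0.29 in the 6 libraries alone, an alternative added after the data were seen). In limma voom H2-Ab1 was −0.16 and Spp1 −0.20.

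Replicate numbers are shared between groups, but same-numbered libraries correlated at only 0.0144, 0.0904 and 0.106, so they share a number and are not paired, though each GF library, but not each SPF library, correlated best with its own number. With a replicate block, 0 genes passed in each of the 3 comparisons (519 at an unadjusted p of 0.05 for GF against SPF), and Cd79a was 0.57.

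Leaving out 1 library at a time, the log2 fold change ranged as follows for genes that changed sign: B2m −0.35 to 0.00949, H2-Ab1 −0.0337 to 0.98, Ciita −10.12 to 7.97, Itgal −4.34 to 5.07, Ighm −0.0208 to 0.61, Cd79b −0.17 to 0.54, Cd79a −0.94 to 1.00, Hcar2 −0.59 to 0.0877, P2ry12 −0.12 to 0.34, Spp1 −0.55 to 0.47 and Hmox1 −0.51 to 0.14. The median of the neutrophil markers was 3.67 over those with a mean of at least 10 CPM, S100a8, S100a9, Ngp and Csf3r. All of these but Csf3r passed that cut through GF alone. Among genes of 5 to 20 CPM in a group, 9.72% had a library at 0 in SPF and 1.56% in GF. Whether these transcripts were missed or absent was not tested. List medians that took either sign when 1 library was left out were those of B (−0.17 to 0.46), border macrophage (−0.64 to 0.82), cholesterol and lipid metabolism (−0.41 to 0.24), choroid plexus (−0.26 to 1.32), cytokines and chemokines (−0.61 to 0.0635), dendritic (−0.0901 to 0.76), disease-associated microglia (−0.0639 to 0.26), glycolysis (−0.0655 to 0.34), heme and iron handling (−0.15 to 0.14), interferon response (−0.46 to 0.47), MHC class I and peptide loading (−0.19 to 0.24), MHC class II (−0.0337 to 0.34), short-chain fatty acid sensing and use (−0.14 to 0.12) and stress and unfolded protein response (−0.0214 to 0.20).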
